A study of Mus musculus with 9 samples.

Results

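Genes of platelet-derived growth factor (PDGF) signalling and of mural cells, the pericytes and smooth muscle cells that wrap vessels, were examined in capillaries of growing and mature bone, 10 in all. They were chosen by name, as a family and with earlier results of these data known: the ligand genes Pdgfa, Pdgfb and Pdgfc, the receptor genes Pdgfra and Pdgfrb, and the mural marker genes Cspg4, Rgs5, Mcam, Acta2 and Tagln. All 10 were found among the 39179 genes listed, and all 10 passed the filter on low counts. Single capillaries with the cells around them had been cut by laser microdissection from the ossification front (OF) of mouse femurs, the zone below the growth plate where new bone forms. The mice carried the Tg(TIE2GFP)287Sato/J reporter on a C57BL/6 background, in which the Tie2 promoter drives GFP so that endothelial cells fluoresce, and they received no treatment. Juvenile mice were 4 weeks old and still growing (n = 5 libraries), and adult mice were 12 weeks old (n = 4 libraries). The reporter was used only to find vessels, so each library is a mixture of endothelial, perivascular, bone and marrow cells. The study describes the samples of an age as coming from different mice, and the labels do not tie each library to a mouse.

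PDGF ligands are secreted dimers that activate 2 receptor tyrosine kinases. PDGF-A and PDGF-C act mainly through the receptor encoded by Pdgfra, which is typical of mesenchymal and stromal cells, while PDGF-B from endothelial cells acts on the receptor encoded by Pdgfrb and recruits pericytes to new vessels. In bone, preosteoclasts are another known source of PDGF-B, and capillary pericytes carry little contractile protein whereas arteriolar smooth muscle cells carry much.

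Totals ranged from 4856833 to 8077362 counts a library, so that 3 counts, the lowest level treated as detectable, were 0.371 to 0.618 CPM (counts scaled to the library total). Amplified reads are not independent molecules, and this floor covers counting error only. Endothelial markers were present in every library, with a summed level of the 10 genes of 492 to 803 CPM in juvenile and 653 to 844 CPM in adult libraries, and none of them was called different between ages. Osteoblast markers were far more abundant, at 171030 to 212541 CPM in juvenile and 62152 to 92981 CPM in adult libraries. Marrow cells differed with age as well: 8 of 8 neutrophil and 7 of 8 erythroid markers were called higher in adult libraries (1.89% of all genes tested). The adult libraries were uneven, since adult replicate 2 held 93.0 CPM of neutrophil markers against 3482 to 4324 CPM in the others and 4646 CPM of chondrocyte markers against 596 to 1030 CPM. Adult replicate 4 held 4359 CPM of megakaryocyte markers against 62.4 to 613 CPM. Juvenile replicates 4 and 5 had counts of the Y-linked gene Ddx3y and almost none of Xist, and the other 7 libraries had 2965 to 6598 counts of Xist and at most 1 of Ddx3y, so sex was not balanced between ages.

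Counts were compared between ages with edgeR's quasi-likelihood test, Benjamini-Hochberg adjustment over 13418 genes and a threshold of 0.05. Values below are normalized counts, that is counts scaled to a common library size, and fold changes are juvenile over adult on the log2 scale with their standard error. Of the 10 genes, 2 were called, Pdgfa and Pdgfc, both higher in juvenile libraries, and 0 were called higher in adult libraries. Among all genes tested, 3.88% were called, 1.99% higher in juvenile and 1.89% higher in adult. At an unadjusted p under 0.05 there were 5, with Pdgfb, Cspg4 and Rgs5 added, against 17.3% of all genes, and DESeq2 and voom also called 0 higher in adult libraries. The ages did not overlap in 3 of the 10 genes, Pdgfa, Pdgfc and Cspg4, all higher in juvenile. Over all genes the ages did not overlap in 9.15%, in 5.07% with juvenile higher and in 4.08% with adult higher. The median log2 fold change of the 10 genes was -0.08, and that of all genes tested was -0.01. The 10 genes did not move together. Ligand genes of the alpha receptor were higher in juvenile libraries, and neither receptor gene was called. The mural genes varied mostly among the adult libraries.

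**Figure D1:**
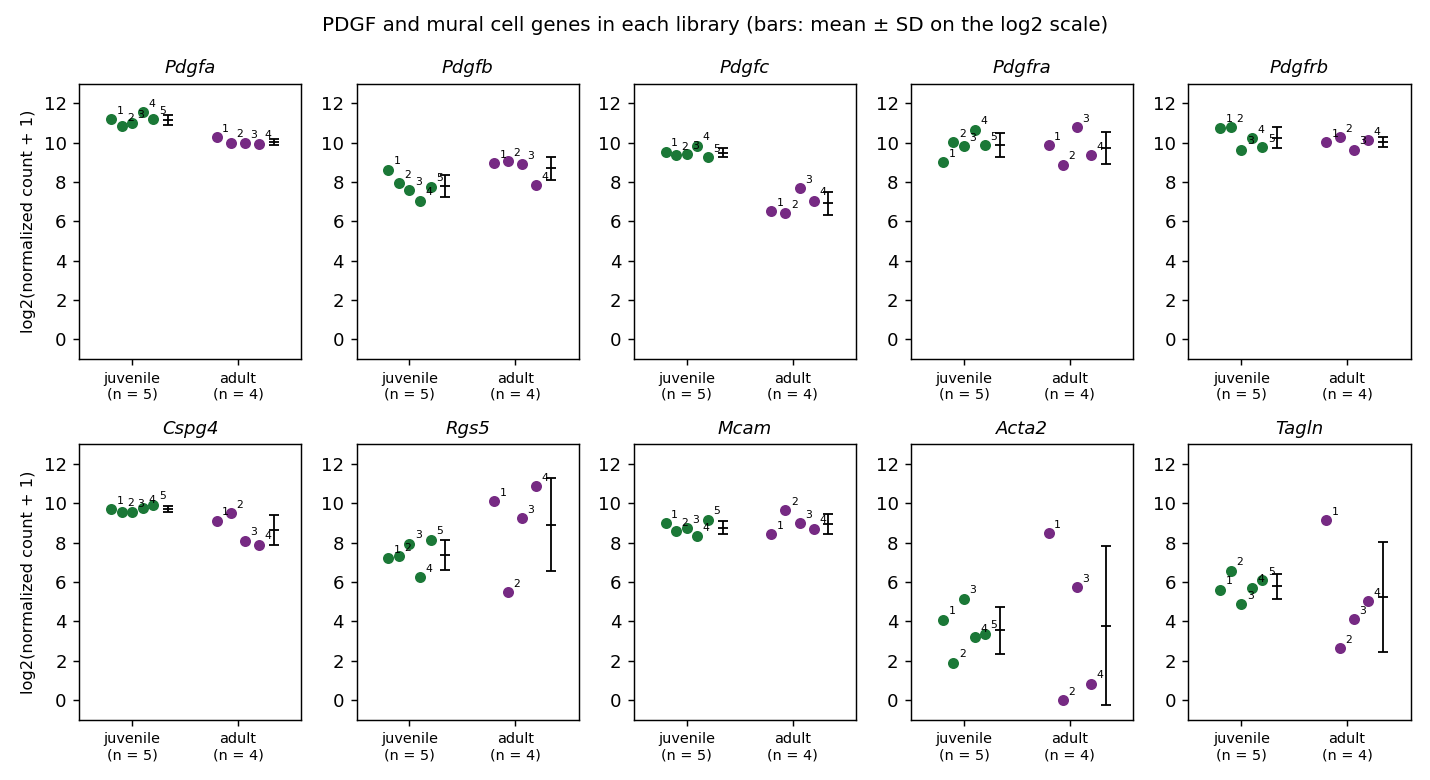
Normalized counts of the 10 genes on the log2 scale after adding 1, with juvenile libraries (n = 5) in green and adult libraries (n = 4) in purple, numbered by replicate, and bars for the mean ± SD. The ages are apart for Pdgfa, Pdgfc and Cspg4, while Rgs5, Acta2 and Tagln are spread widely among the 4 adult libraries.

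Pdgfc encodes PDGF-C, a ligand secreted in a latent form that proteases must cleave. It lies on chromosome 3 (81036416 to 81214040, plus strand, GRCm38). Its normalized counts were 744, 657, 684, 920.2 and 616 in juvenile replicates 1 to 5 and 89.96, 83.9, 206 and 131 in adult replicates 1 to 4. Every juvenile library lay far above the highest adult library, which was adult replicate 3. Juvenile libraries averaged 724 ± 119 (SD, n = 5) and adult libraries 128 ± 56.1 (SD, n = 4). The log2 fold change was 2.50 (SE 0.30), or 5.67-fold, with an adjusted p of 0.00106 in edgeR. It was called in 17 of 17 alternative analyses, with log2 fold changes from 2.33 to 2.82.

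Pdgfa encodes PDGF-A and lies on chromosome 5 (138976014 to 138997370, minus strand). It had 2323, 1824, 2048, 3019 and 2325 normalized counts in the juvenile libraries and 1234, 1025, 1008 and 985 in the adult libraries. All juvenile libraries were above all adult ones, and within the adult group replicate 1 stood a little apart. Averages were 2308 ± 449 (SD, n = 5) and 1063 ± 115 (SD, n = 4), a log2 fold change of 1.12 (SE 0.18), or 2.17-fold, with an adjusted p of 0.00535 in edgeR. Without juvenile replicates 4 and 5, the libraries without Xist, the log2 fold change was 0.96 and the adjusted p 0.0548, so the call was lost. Pdgfc kept its call in these 7 libraries (2.45, adjusted p = 0.0220). An exact permutation test in the 7 libraries, added after the values were seen, gave p = 0.0286 over 35 splits for each of the 2 genes. That is the smallest p that 35 splits allow. For both genes every juvenile library was already known to lie above every adult library, so this test adds no independent support. Exons of the antisense gene 6330403L08Rik cover 26.1% of the Pdgfa exons, and it had 43 to 211 counts against 978 to 2562 for Pdgfa. The strand setting of the counting was not given in the sources used here, so reads of these overlapping genes cannot be told apart.

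Osteoblast markers differed between ages in the same direction as both ligand genes. Of 10 osteoblast markers, 5 were called higher in juvenile (1.99% of all genes) and 1 (Bglap) higher in adult libraries (1.89%). The summed level of the 10 markers did not overlap between ages. Relative to the mean log2 CPM of these markers in the same library, Pdgfc was still higher in juvenile libraries by 1.87 on the log2 scale, with no overlap and an exact permutation p of 0.00794, the smallest that 5 against 4 libraries allow. Relative to the same markers Pdgfa was higher by 0.41, and the exact permutation p was 0.0714. This comparison was chosen after the values were seen. The mean gave each marker equal weight, including Bglap, whose log2 fold change was -2.04. Those of Col1a1 (1.37), Col1a2 (1.25), Ibsp (1.29) and Dmp1 (1.93) were larger than that of Pdgfa (1.12), and those of the other markers were smaller. The difference for Pdgfa therefore depends on how the markers are combined. In a mixture of this kind, fewer cells of a type and less RNA per cell cannot be told apart.

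**Figure D2:**
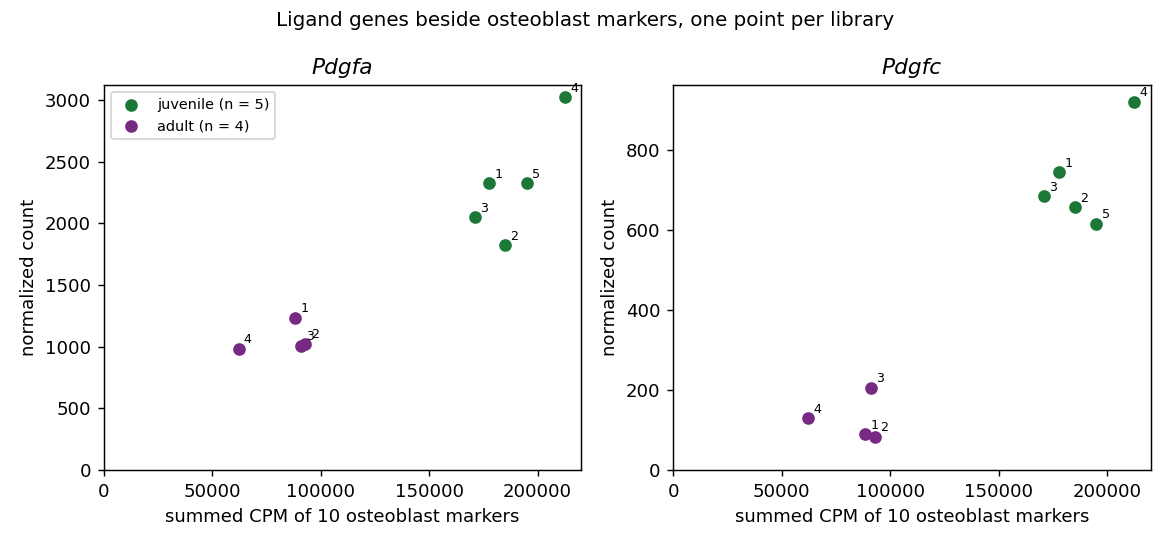
Normalized counts of Pdgfa and Pdgfc (vertical axes) against the summed CPM of 10 osteoblast markers (horizontal axes), with 1 point for each of the 5 juvenile (green) and 4 adult (purple) libraries. The juvenile libraries lie to the upper right of all adult libraries in both panels, and juvenile replicate 4 is highest on both axes.

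Pdgfb encodes PDGF-B, the ligand that endothelial cells use to recruit pericytes, and lies on chromosome 15 (79995874 to 80014977, minus strand). It had 393, 245, 191, 132 and 216 normalized counts in the juvenile libraries. In the adult libraries it had 493, 536, 474 and 229.6. Adult replicates 1 to 3 were above all juvenile libraries, and adult replicate 4 fell within the juvenile range. Its log2 fold change was -0.88 (SE 0.34), with means of 235 ± 97.3 (SD, n = 5) and 433 ± 138 (SD, n = 4), and it was not called (adjusted p = 0.185 in edgeR). Per unit of the 10 endothelial markers, the log2 ratio of Pdgfb averaged -0.78 ± 0.35 in juvenile and 0.07 ± 0.57 in adult libraries. This difference of -0.85 had an exact permutation p of 0.0397, and 0.0926 after adjustment over the 5 ratios tested. It did not pass.

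The ratio of Pdgfa over Pdgfb differed between ages, although Pdgfb alone was not called. This ratio does not depend on how the libraries are scaled. It can change with the mixture of cells in a library, which was not tested. On the log2 scale it averaged 3.35 ± 0.73 in juvenile (n = 5) and 1.36 ± 0.51 in adult libraries (n = 4). Ratios in juvenile replicates 1 to 5 were 2.56, 2.89, 3.41, 4.495 and 3.42, and those in adult replicates 1 to 4 were 1.32, 0.93, 1.08 and 2.09. The ages did not overlap, and the difference was 1.996, or 3.99-fold (exact permutation p = 0.00794, two-sided, adjusted over the 5 ratios 0.0397). Adjusted over the 5 ratios, this value passed with all 9 libraries and missed the threshold when any of 8 of the 9 libraries was left out (0.0714 to 0.143), where fewer splits are possible. In these 8 the unadjusted exact permutation p was 0.0286 or 0.0179, at which a ratio cannot pass alone after adjustment over 5. These misses therefore do not show a weaker difference.

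In log2 CPM both receptor genes differed between ages by less than the SD within either age. The difference was 0.21 for Pdgfrb (SD 0.53 in juvenile and 0.27 in adult libraries) and 0.16 for Pdgfra (SD 0.59 and 0.81). Pdgfrb, the receptor gene of pericytes, lies on chromosome 18 and had 1728, 1765, 796, 1201 and 877 normalized counts in juvenile and 1043, 1244, 803 and 1119.8 in adult libraries. The juvenile libraries spanned the whole adult range, with replicates 1 and 2 above it. Its log2 fold change was 0.28 (SE 0.26, adjusted p = 0.671 in edgeR), and its sign held in 17 of 17 alternatives. Pdgfra, on chromosome 5 (75152292 to 75198215, plus strand), had 513, 1049.7, 907, 1613 and 941 normalized counts in juvenile and 937, 473, 1752 and 657 in adult libraries. The highest and the lowest library were both adult. The log2 fold change was 0.07 (SE 0.37, adjusted p = 0.961), and its sign turned in 4 of 17 alternatives. The log2 ratio of Pdgfra over Pdgfrb was -0.36 ± 0.90 in juvenile and -0.30 ± 1.07 in adult libraries (exact permutation p = 0.937), so the mixture of the 2 receptor genes varied between libraries of the same age and not detectably between ages. Pdgfb over Pdgfrb, ligand over its receptor, was -2.44 ± 0.53 in juvenile and -1.33 ± 0.66 in adult libraries, a difference of -1.11 (exact permutation p = 0.0556, adjusted 0.0926). Adult replicate 4, at -2.28, was the one adult library inside the juvenile range.

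**Figure D3:**
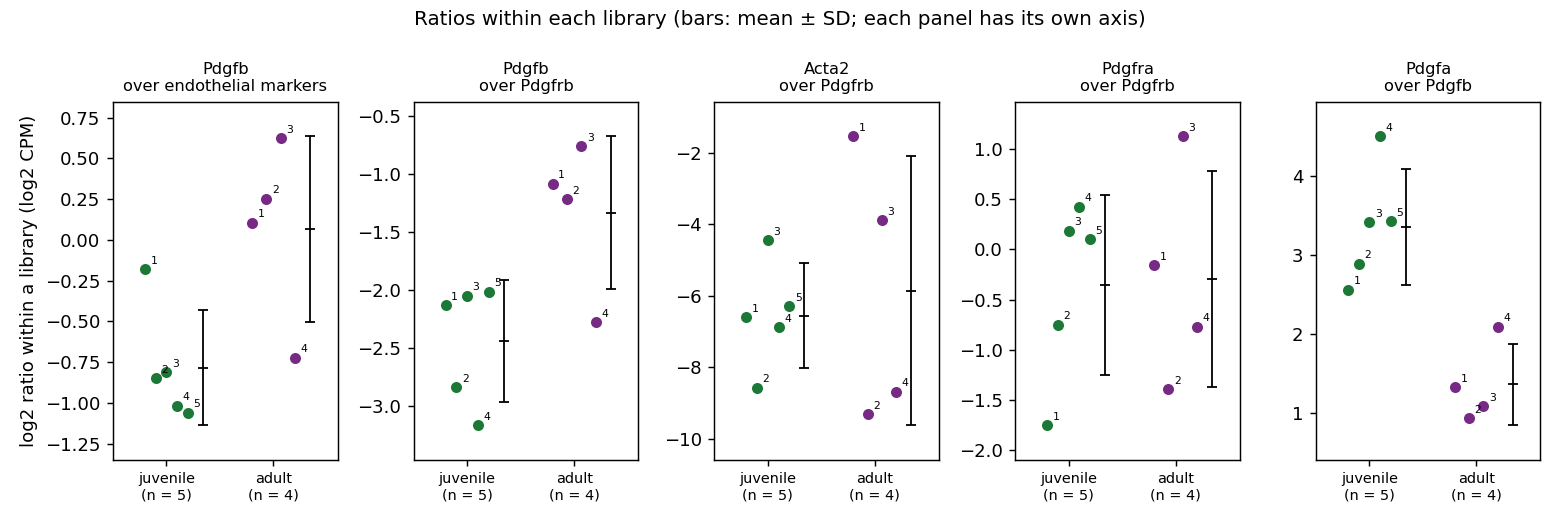
Log2 ratios within each library for 5 pairs of measurements, from log2 CPM with a prior count of 2, for juvenile (green, n = 5) and adult (purple, n = 4) libraries, with bars for the mean ± SD and a separate axis for each panel. Only Pdgfa over Pdgfb has ages that do not overlap, with adult libraries at 2.09 or less and juvenile libraries at 2.56 or more.

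Cspg4 encodes the proteoglycan NG2 of pericytes, which other mesenchymal cells also carry, and lies on chromosome 9 (56865033 to 56899870, plus strand). It had 833, 759, 747, 872 and 976 normalized counts in juvenile and 557, 719, 273 and 237 in adult libraries. The juvenile libraries were close together and all above the adult libraries, of which replicate 2 came near to them. Means were 837 ± 93.5 (SD, n = 5) and 447 ± 231 (SD, n = 4). The log2 fold change of 0.91 (SE 0.30) was not called (adjusted p = 0.124 in edgeR). Without adult replicate 2 it was 1.21 and was called (adjusted p = 0.0355).

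Rgs5 encodes a regulator of G protein signalling and is among the most used pericyte markers. It lies on chromosome 1 (169655501 to 169695813, plus strand). Juvenile libraries had 148, 157, 246, 75.4 and 283 normalized counts, and adult libraries had 1095, 44.0, 602 and 1879. Adult replicates 1, 3 and 4 were above every juvenile library, and adult replicate 2 was the lowest of all 9. Fitted over all libraries, the log2 fold change was -2.32 (SE 0.69), with means of 182 ± 82.9 (SD, n = 5) and 905 ± 778 (SD, n = 4), and it missed the threshold (adjusted p = 0.0837 in edgeR). Leaving out adult replicate 2, the library rich in chondrocyte and poor in neutrophil markers, gave -2.73 and an adjusted p of 0.00392. With that library kept and a filter of 10 counts in every library, the value was -2.34 and was called (adjusted p = 0.0240). The call thus depended on that library and on the filter.

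Mcam encodes CD146, an adhesion molecule of pericytes and endothelial cells, and lies on chromosome 9 (44134469 to 44142727, plus strand). It had 507, 387, 427, 324 and 575 normalized counts in juvenile and 348, 812, 511 and 417 in adult libraries. Here adult replicate 2 was the highest of all, and the remaining 3 adult libraries lay inside the juvenile range. Its log2 fold change was -0.23 (SE 0.27, adjusted p = 0.757), and it was 0.04 without adult replicate 2.

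Acta2 (alpha smooth muscle actin) and Tagln (transgelin, SM22) are genes of the contractile apparatus and mark smooth muscle cells more than capillary pericytes. Acta2 lies on chromosome 19 (34241090 to 34255590, minus strand) and had 14, 3, 26, 7 and 7 counts in the juvenile libraries, 15.9, 2.71, 34.7, 8.25 and 9.31 after normalization. The adult libraries had 494, 0, 68 and 1 counts, or 358, 0, 52.8 and 0.786 after normalization. Adult replicate 1 was far above the rest, and adult replicates 2 and 4 were below every juvenile library. A count of 0 in adult replicate 2 allows up to 0.515 CPM. The fitted log2 fold change was -2.86 (SE 1.42, adjusted p = 0.327 in edgeR), and without adult replicate 1 it moved to -0.36. Actin genes are near-identical over long stretches, so reads can be shared between Acta2 and its paralogs.

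Tagln lies on chromosome 9 (45929619 to 45936058, minus strand). Its normalized counts were 47.8, 94.9, 28.0, 51.8 and 67.8 in juvenile and 564, 5.24, 16.3 and 31.5 in adult libraries. Adult replicate 1 was again by far the highest, and the other adult libraries reached at most the lower part of the juvenile range. The log2 fold change was -1.41 (SE 1.02, adjusted p = 0.556 in edgeR) with adult replicate 1 and 1.69 without it, so its direction rested on that library. Exons of Gm48529 on the opposite strand cover 62.4% of the Tagln exons and those of Pcsk7 cover 5.43%. Gm48529 was not among the genes listed in the counts. Reads of overlapping genes cannot be told apart without strand. Acta2 over Pdgfrb, the contractile marker per unit of the pericyte receptor gene, averaged -6.55 ± 1.47 on the log2 scale in juvenile and -5.85 ± 3.77 in adult libraries (exact permutation p = 0.675).

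**Figure D4:**
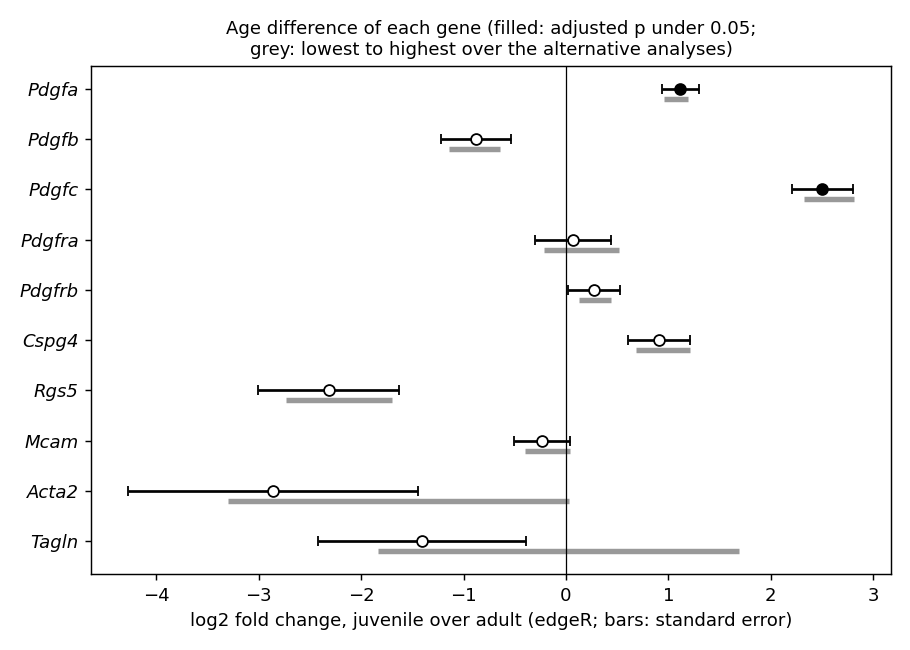
Log2 fold change, juvenile over adult, of each of the 10 genes in edgeR, with bars for the standard error, filled points for genes called at an adjusted p under 0.05, and grey bars from the lowest to the highest value over the alternative analyses. Pdgfa (1.12) and Pdgfc (2.50) are filled, and the grey bars of Pdgfra, Mcam, Acta2 and Tagln cross 0.

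Acta2, Tagln and Rgs5 had the widest spread of the 10 genes among adult libraries. The SD of log2 CPM there was 3.60 for Acta2, 2.71 for Tagln and 2.37 for Rgs5, while Mcam (0.53) and Cspg4 (0.77) were close to Pdgfb (0.56) and Pdgfc (0.59). Over all genes tested the median SD among adult libraries was 0.70 and the 90th percentile 2.13, so these 3 genes lay beyond that percentile. Among juvenile libraries their SDs were 1.10, 0.63 and 0.74, against a median of 0.51 and a 90th percentile of 1.39. These percentiles were taken over genes of all levels, without matching for level. Acta2 had 0 and 1 counts in adult replicates 2 and 4, where the prior count of 2 largely sets log2 CPM. Adult replicate 1 was high for all 3 genes, the highest for Acta2 and Tagln and the second highest for Rgs5, which peaked in adult replicate 4. Adult replicate 4 was also the library rich in megakaryocyte markers, and whether this bears on its Rgs5 level was not tested.

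Levels between genes were compared as CPM per kilobase of exon. In juvenile libraries Pdgfa was highest (117.9 ± 23.0), followed by Pdgfrb (37.0 ± 13.3), Pdgfc (22.7 ± 3.73), Mcam (21.1 ± 4.70), Pdgfra (16.0 ± 6.29), Cspg4 (11.2 ± 1.25), Pdgfb (9.01 ± 3.72), Rgs5 (6.38 ± 2.90), Tagln (4.66 ± 2.004) and Acta2 (1.03 ± 0.900). Pdgfa stood above Pdgfrb in all 5 juvenile libraries with no overlap, and every other pair of neighbours in this order overlapped. In adult libraries the order was Pdgfa (54.3 ± 5.89), Rgs5 (31.7 ± 27.3), Pdgfrb (30.6 ± 5.41), Mcam (24.8 ± 9.74), Pdgfb (16.6 ± 5.29), Pdgfra (15.2 ± 8.98), Tagln (12.4 ± 21.9), Acta2 (7.47 ± 12.5), Cspg4 (5.97 ± 3.09) and Pdgfc (3.99 ± 1.76). All neighbours overlapped there. Pdgfc thus went from place 3 of 10 in juvenile to place 10 in adult libraries, and Rgs5 from place 8 to place 2, the latter with a spread nearly as large as its mean.

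Further genes of the PDGF pathway were taken from a list of 28, of which 27 were tested (Plau was not). Of these, 3 were called higher in juvenile (1.99% of all genes) and 0 higher in adult libraries (1.89%), with 6 at an unadjusted p under 0.05 (17.3% of all genes) and a median log2 fold change of 0.11. Pdgfrl, a gene with similarity to the extracellular part of the receptors, had 832, 1501, 1248, 1017 and 1003 normalized counts in juvenile and 315, 559, 324 and 249.3 in adult libraries. No adult library reached a juvenile one, and the log2 fold change was 1.63 (SE 0.26, adjusted p = 0.00595 in edgeR). It was called in 16 of 17 alternatives and missed the threshold in the 7 libraries with Xist (adjusted p = 0.0502). Pcsk6 encodes a proprotein convertase of the furin family, enzymes that cleave PDGF precursors. It averaged 2201 ± 173 (SD, n = 5) and 1043 ± 181 (SD, n = 4), with a log2 fold change of 1.08 (SE 0.16, adjusted p = 0.00382), and it was called in all 17 alternatives. Lrp1 encodes an endocytic receptor that binds PDGF receptor beta. It averaged 1794 ± 167 and 1004 ± 275 with a log2 fold change of 0.84 (SE 0.19, adjusted p = 0.0292), and was called in 8 of 17 alternatives and in 2 of the 9 that left out a library. The intracellular adaptors and enzymes of the list, among them Grb2, Shc1, Plcg1, Ptpn11 and Src, were not called.

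A list of 16 further pericyte genes had 13 that were tested, and Higd1b, Vtn and Foxf2 were too low. Of the 13, 0 were called higher in juvenile (1.99% of all genes) and 1 higher in adult libraries (1.89%). At an unadjusted p under 0.05 there were 3, Steap4, Abcc9 and Heyl (17.3% of all genes). The median log2 fold change of the 13 was 0.12. DESeq2 called 2 in each direction. Steap4, a metalloreductase gene expressed by pericytes and also by other cell types, had 328, 496, 437, 189 and 269 normalized counts in juvenile and 1001, 1109, 949.7 and 904 in adult libraries. Its ages were far apart, including adult replicate 2, in which Rgs5 was low. The log2 fold change was -1.53 (SE 0.26, adjusted p = 0.00771 in edgeR), and it was called in all 17 alternatives. Gucy1a1, a subunit of the nitric oxide receptor guanylate cyclase and the gene of the list with the highest CPM averaged over all 9 libraries, had 710.4 ± 115 and 606 ± 54.7 normalized counts in juvenile and adult libraries and was not called (log2 fold change 0.23, adjusted p = 0.601). Abcc9 (770 ± 215 in juvenile and 356 ± 172 in adult libraries, adjusted p = 0.0899 in edgeR) was higher in juvenile libraries and not called. The same held for Heyl (486 ± 217 and 204 ± 81.8, adjusted p = 0.0849). Both had counts in every library, as did Notch3, Kcnj8 and Gjc1. Vtn had 0 counts in every library. Higd1b had 0 in every juvenile library, with 80.5, 0, 246 and 3.93 normalized counts in adult replicates 1 to 4. The pericyte list as a whole summed to 378 to 690.3 CPM in juvenile and 417 to 543 CPM in adult libraries, so the ranges overlapped.

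Of 14 further contractile genes only 7 were tested, because Myh11, Cnn1, Lmod1, Actg2, Synpo2, Myocd and Pln were too low. Myocd, the coactivator of smooth muscle genes, had 0 counts in every library, and Myh11, the smooth muscle myosin gene, had 133 normalized counts in adult replicate 1 and at most 11.6 in any other library. That is the library in which Acta2 and Tagln were highest. Of the 7 genes, 0 were called higher in juvenile (1.99% of all genes) and 1 higher in adult libraries (1.89%). At an unadjusted p under 0.05 there were 2 (17.3% of all genes), and the median log2 fold change of the 7 was 0.11. Myl9, the regulatory light chain of smooth muscle myosin, had 175, 280.3, 278, 204 and 136 normalized counts in juvenile and 1039.6, 344, 294 and 1029 in adult libraries. Adult replicates 1 and 4 were high, and the other adult libraries lay just above the juvenile range. In the fit of all 9 libraries the log2 fold change was -1.66 (SE 0.40, adjusted p = 0.0374 in edgeR), and the call held in 2 of the 9 analyses that left out a library, those without adult replicate 2 or 3. The genes of the list with the highest CPM averaged over all 9 libraries, Tpm1 (6521 ± 751 and 6061 ± 955) and Cald1 (1765 ± 293 and 1547 ± 356), have non-muscle forms and were not called.

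**Figure D5:**
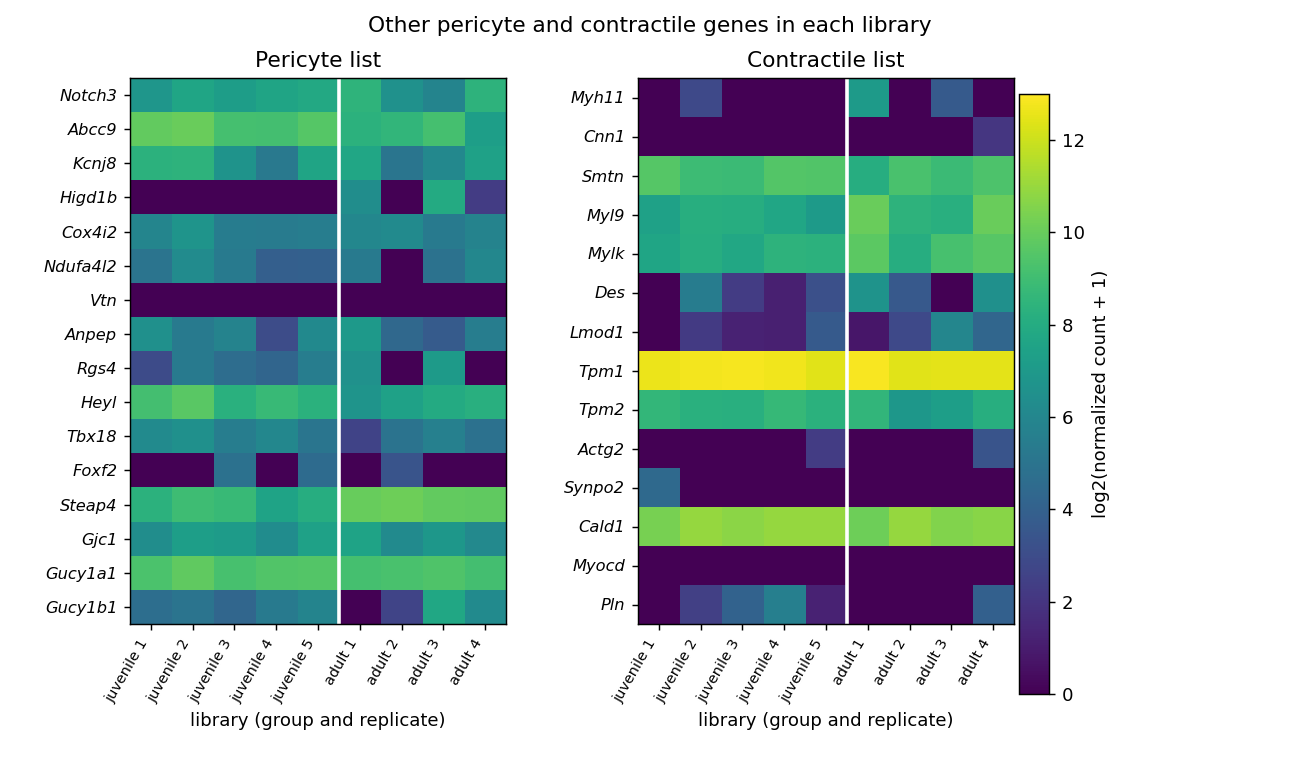
Log2 of normalized counts plus 1 (colour) of 16 pericyte genes and 14 contractile genes in each of the 5 juvenile and 4 adult libraries, with a white line between ages. Steap4 is brighter in all 4 adult libraries, Myl9 in adult replicates 1 and 4, Myh11 in adult replicate 1, and Vtn and Myocd are dark throughout.

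Promoters were searched for the CArG box, the motif bound by serum response factor at many contractile genes, in RefSeq windows of GRCm38.p6 from 250 bases before to 50 bases after each start, on both strands. A window was found for 7 of the 10 genes (not for Pdgfb, Pdgfrb or Tagln). Of the 14 contractile genes 11 had a window (not Myh11, Actg2 or Myocd). The box was present in at least 1 window of 1.81% of all 27025 genes. Among the 7 it was in Pdgfc only, and among the 11 in Myl9 only. Both genes were called between ages, Pdgfc higher in juvenile and Myl9 higher in adult libraries, so the same kind of motif stands before genes with opposite differences. The 2 stretches are shown for that reason, each of 150 bases on the plus strand, with the box in capitals. The first runs from base -150 to base -1 before the start and lies at chr3:81036266-81036415, and the second runs from base -200 to base -51 and lies at chr2:156775264-156775413. Neither overlaps an annotated exon. A match is a description of letters and not evidence of binding. A gene without a match, such as Acta2, may hold a box outside its window or in a variant form.
Pdgfc: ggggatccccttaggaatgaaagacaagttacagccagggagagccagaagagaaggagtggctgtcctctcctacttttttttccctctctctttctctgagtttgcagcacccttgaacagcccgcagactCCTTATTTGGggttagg
Myl9: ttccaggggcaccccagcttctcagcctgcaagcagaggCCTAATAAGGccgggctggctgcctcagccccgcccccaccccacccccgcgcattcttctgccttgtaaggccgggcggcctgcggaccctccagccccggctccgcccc
The box begins 17 bases before the Pdgfc start and 161 bases before the Myl9 start. TATAAA was in 0 of the 7 genes and in 15.7% of all genes, and GGGCGG was in 3 of the 7 (Pdgfa, Cspg4 and Mcam) and in 38.2% of all genes.

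For each gene called, and for Pdgfrb, Rgs5 and Acta2, the 3 genes with the most similar pattern over the 9 libraries were found among 8550 genes with a mean count of at least 100. Likeness was the root mean square difference of centred log2 CPM, with 0 for identical patterns. The pattern of Pdgfa was closest to that of Col22a1 (0.10), a collagen gene, followed by Gm26636 (0.16) and Bace1 (0.17). Col22a1 had 5369 to 7670.0 normalized counts in juvenile and 2821 to 3063 in adult libraries. Pdgfc was closest to Nckap5l (0.41), Fads1 (0.45) and Cpz (0.46). The closest patterns to Pdgfrb were those of Ide (0.13), Mgrn1 (0.18) and Qars (0.20). The nearest genes to Rgs5 were Vav1 (0.74), Rarres2 (0.74) and Dnajb12 (0.82), and for Acta2 they were Dph2 (1.20), Trim2 (1.46) and Adssl1 (1.51). Such a difference tends to grow with a gene's own variation. The root mean square of log2 CPM about its mean was 2.22 for Acta2, 1.65 for Rgs5 and 1.33 for Pdgfc. It was 0.58 for Pdgfa and 0.40 for Pdgfrb, so the differences cannot be compared between these genes.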

How the data were processed

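RNA from laser-microdissected capillaries with surrounding cells was amplified with a SMART-Seq v4 kit and sequenced as paired-end reads. The authors mapped reads to mm10 (GRCm38) with TopHat2 and Bowtie2 at default settings, the submitters' processing notes name featureCounts, and the deposited values are whole-number counts per Ensembl gene, 1 table per library, without normalization. Tool versions, the strand setting and the annotation release were not given in the sources used here. Of 39179 genes, 37607 (96.0%) had a symbol in GENCODE vM21 and held 99.3% or more of every library's counts. A count was present for 21512 genes.

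The comparison of ages used edgeR 4.0.16 in R 4.3.3 (filterByExpr, TMM, quasi-likelihood F test, Benjamini-Hochberg over all genes tested). Log2 CPM used a prior count of 2. The 5 ratios were compared with two-sided exact permutation tests over 126 splits. Alternatives were DESeq2 1.42.0 (the tool of the study), limma 3.58.1 voom, other size factors, no filter, a block for the replicate number, a minimum of 10 counts per library, only the 7 libraries with Xist, each library left out in turn, and other prior counts, marker summaries and exon lengths. The comparison with osteoblast markers was added after the values were seen. So were the exact permutation tests of Pdgfa and Pdgfc in the 7 libraries with Xist. The fit was tested on simulated counts with 200 changed genes.

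The 10 genes and all lists were chosen with earlier results of these data known. Named genes of the lists are those called (at most 5 a list and direction) and the 2 with the highest mean CPM in each. Genes given only as not tested, at 0 or not called are named besides, after their values were seen. Replicate numbers of the labels run within each age. No 2 libraries of an age were copies in the 16 pairs compared. Plots were made with matplotlib 3.10.9 (Python 3.11.15).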

Additional observations from a re-analysis of the deposited data

Results flagged for a closer look

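In 30 groups of libraries (10 genes and 5 ratios at 2 ages) the highest and the lowest library were checked against the rest with Dixon's criterion. In 4 groups a library stood apart. The criterion's rate of about 1 in 20 groups, or 1.5 of 30, holds for independent groups of normally distributed values. The genes were checked as normalized counts, not on the log2 scale, and the ratios share genes. The 4 groups therefore cannot be set against that rate. In 3 of the 4 groups the library was adult replicate 1. For Acta2 it had 358 normalized counts, where the remaining adult libraries had 0 to 52.8. Its Tagln value was 564, against 5.24 to 31.5. Its Pdgfa value was 1234, against 985 to 1025, and still below the lowest juvenile library. The log2 ratio of Pdgfb over endothelial markers was -0.18 in juvenile replicate 1, against -1.06 to -0.81 in the other juvenile libraries.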

How the results depend on the processing

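Across all genes, 267 were called higher in juvenile and 253 higher in adult libraries. DESeq2 called 719 and 771, the fit with the replicate number as a block 46 and 35, and the 7 libraries with Xist 42 and 31. Leaving out each library in turn gave 145 to 306 and 117 to 345, with the lowest counts without juvenile replicate 5. Libraries with the same number did not deviate together (correlations from -0.03 to 0.03 over 4 pairs). Those with different numbers had correlations from -0.05 to 0.06. The numbers were therefore not taken as pairs, but 4 pairs are too few to exclude a shared batch. Under the block 1 of the 10 genes was called, Pdgfc, while Pdgfa had a log2 fold change of 1.10 (adjusted p = 0.0555). The block gave 0.033 for Acta2 and 0.60 for Tagln. The 7 libraries with Xist gave 1 called gene of the 10, again Pdgfc. Leaving out a library gave 2 to 3 genes called higher in juvenile and 0 to 1 higher in adult libraries, and the extra calls, Cspg4 and Rgs5, came without adult replicate 2. The filter of 10 counts in every library gave 1 gene higher in adult libraries, Rgs5, and left Acta2 and Tagln untested. Acta2 was also not tested without juvenile replicate 1 or 3.

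Signs turned for Pdgfra (-0.21 in the 7 libraries, -0.16, -0.17 and -0.09 without juvenile replicate 4, adult replicate 2 or adult replicate 4), Mcam (0.044 without adult replicate 2) and Tagln (0.39 with voom, 1.69 without adult replicate 1). With a library left out the ranges were -0.17 to 0.52 for Pdgfra, -0.40 to 0.044 for Mcam and -1.84 to 1.69 for Tagln. None of these was called. Relative to the equally weighted mean of the osteoblast markers Pdgfa was 0.41 higher in juvenile libraries and did not pass. Of the PDGF pathway list, 1 gene was called higher in juvenile in the 7 libraries, 2 to 4 with a library left out, and DESeq2 called 1 higher in adult. Of the pericyte list, DESeq2 called 2 higher in juvenile and 2 in adult, the filter of 10 counts 2 in juvenile, no filter 2 in adult, and leaving out a library 0 to 1 in juvenile and 1 in adult. Of the contractile list, DESeq2 and the filter of 10 counts called 2 higher in adult, voom, the block and the 7 libraries 0, and leaving out a library 0 to 2.

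Pdgfa over Pdgfb was 1.59 in the 7 libraries (adjusted p = 0.238) and 1.71 to 2.24 with a library left out. Without adult replicate 4, Pdgfb over endothelial markers was -1.11 and Pdgfb over Pdgfrb -1.42, and both passed (adjusted p = 0.0298). With any library left out the range was -1.11 to -0.66 for the former, -1.42 to -0.92 for the latter, -1.86 to 0.74 for Acta2 over Pdgfrb and -0.42 to 0.42 for Pdgfra over Pdgfrb. The cause of these shifts was not tested. Where the adult libraries vary as widely as for Rgs5, Acta2 and Tagln, 4 libraries limit what can be called.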
